A study of Mus musculus with 8 samples.

Results

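Genes of vascular smooth muscle and of pericytes were followed in hearts of mice injected with lipopolysaccharide (LPS), a molecule of the outer membrane of Gram-negative bacteria to which the body reacts with inflammation. The set holds 10 genes, Smtn, Acta2, Tagln, Myh11, Rgs5, Pdgfrb, Pdgfb, Cspg4, Kcnj8 and Abcc9, out of 15596 genes that had a probe on the array. Probes of the members were found by matching the RefSeq accession printed with each gene probe to a gene symbol, without use of any measured value. The 10 genes themselves were chosen with earlier results of these data known. All 10 had at least 1 probe, and together they had 16 of the 35078 gene probes. Of these genes, 5 had 1 probe, 4 had 2 and Abcc9 had 3.

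The groups were 4 female mice of the inbred strain C57BL/6, 12 weeks old, that were given 5 mg/kg LPS into the peritoneum, and 4 female C57BL/6 mice of that age that were given saline by the same route. Hearts were flushed with buffer and taken 8 h after either injection. Each heart gave 1 labelled RNA sample and 1 spotted long-oligonucleotide array read in 1 colour, so every value below comes from a separate mouse. No mouse in either group carried a transgene or a deletion according to the labels.

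Smooth muscle cells and pericytes, together called mural cells, wrap the outside of blood vessels. Smooth muscle surrounds arteries and arterioles and sets their diameter with an actin and myosin apparatus, and pericytes sit on capillaries in the same basement membrane as the endothelium. Endothelial cells release PDGF-B, which recruits mural cells through their receptor PDGFR-beta, and Notch signals passing from endothelium to mural cells help to maintain the mural state. ATP-sensitive potassium channels of vascular muscle and pericytes open when cellular energy is low and relax the vessel. The hearts were measured as whole tissue. Fewer mural cells, less RNA per mural cell and changes in other cells therefore cannot be told apart in any value below. Smtn, Pdgfrb, Pdgfb and Abcc9 are also, or instead, made by other cells, as given with each gene.

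In the mouse genome (GRCm38.p6, RefSeq), Smtn spans chr11:3517522-3539292, Acta2 chr19:34240336-34255585, Tagln chr9:45929628-45936058, Myh11 chr16:14194527-14292188 and Rgs5 chr1:169655501-169695813. Pdgfb spans chr15:79995865-80024614 and Cspg4 chr9:56865104-56899870. Kcnj8 at chr6:142564837-142571614 and Abcc9 at chr6:142587862-142702766 are neighbours, with 16247 bases between them, and their products form 1 channel. The sequences of the array probes were not used here, so the exon that each probe reads is not given.

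Promoter sequence is shown for 4 members. Acta2 is given because smooth muscle genes are textbook targets of serum response factor (SRF), which binds the 10-base CArG box. Smtn is given because its probe had the largest difference between groups, and Kcnj8 and Abcc9 because they are neighbours and encode 1 channel. RefSeq promoter entries (GRCm38.p6) were matched for 6 of the 10 members, and each sequence covers the 250 bases before the listed start, from 5′ to 3′ on the strand of the gene, which is the minus strand in all 4. The windows are chr19:34255374-34255623 for Acta2, chr11:3539293-3539542 for Smtn, chr6:142571615-142571864 for Kcnj8 and chr6:142702275-142702524 for Abcc9. That of Acta2 reaches into the annotated span of Acta2, and that of Abcc9 lies wholly inside the annotated span of Abcc9. In both genes the outermost end lies farther upstream than the start listed for the window. Capitals mark CArG boxes, allowing up to 1 G or C in the AT-rich core, and the MCAT element CATTCC, a site of TEAD factors, or its reverse complement GGAATG. Both strands were searched and no marked match overlaps another.
Acta2: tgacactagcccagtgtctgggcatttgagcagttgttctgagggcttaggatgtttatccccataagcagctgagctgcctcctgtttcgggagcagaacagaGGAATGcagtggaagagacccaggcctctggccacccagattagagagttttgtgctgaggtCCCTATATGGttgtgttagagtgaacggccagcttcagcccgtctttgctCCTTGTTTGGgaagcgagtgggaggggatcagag
Smtn: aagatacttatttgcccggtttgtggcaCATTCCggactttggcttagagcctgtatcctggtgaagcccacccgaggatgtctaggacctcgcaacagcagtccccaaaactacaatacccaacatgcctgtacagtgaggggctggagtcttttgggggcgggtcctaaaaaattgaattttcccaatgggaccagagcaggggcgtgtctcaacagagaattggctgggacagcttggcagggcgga
Kcnj8: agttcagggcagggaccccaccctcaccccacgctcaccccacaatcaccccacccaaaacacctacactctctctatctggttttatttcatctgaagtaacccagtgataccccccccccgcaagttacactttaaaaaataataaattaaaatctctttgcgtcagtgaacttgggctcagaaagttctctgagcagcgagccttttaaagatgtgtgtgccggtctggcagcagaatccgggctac
Abcc9: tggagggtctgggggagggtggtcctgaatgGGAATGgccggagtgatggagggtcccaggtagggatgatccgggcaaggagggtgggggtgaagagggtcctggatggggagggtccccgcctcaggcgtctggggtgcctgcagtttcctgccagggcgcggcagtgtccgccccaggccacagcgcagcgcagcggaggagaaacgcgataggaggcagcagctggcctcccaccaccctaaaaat
The Acta2 sequence has CArG boxes CCCTATATGG from base -84 to -75 and CCTTGTTTGG from base -34 to -25, each with 1 G or C in the core, and GGAATG from base -146 to -141. Smtn has CATTCC from base -222 to -217, and Abcc9 has GGAATG from base -219 to -214. Neither motif was matched in this window of Kcnj8. Among 32851 promoter entries, searched over 250 bases before and 50 bases after the start, 9.98% held a CArG box by this rule. In the same entries, 1.63% held a CArG box with no G or C in the core, and 14.7% held the MCAT element on either strand. Each share thus covers 50 more bases per promoter than the printed windows. These matches describe the letters of the windows, not binding.

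Most gene probes on these arrays stayed near background, which bears on how firmly each member was measured. By the median of its gene probes, an LPS array stood 12 to 18 units of intensity above its local background, and a saline array 15 to 32. A probe counted as above background where it exceeded the 95th percentile of 94 negative-control spots on its array, a limit of 25.9 to 40.5 units. Levels below are normalized log2 intensities, on which a level of 1 probe cannot be set against that of another probe. A gene was tested where its brightest probe passed that limit on 4 or more of the 8 arrays, which 8874 named genes met, and a difference was called where the Benjamini-Hochberg adjusted p of the moderated linear model of limma was under 0.05. Of the 16 member probes 11 were kept. Of the defining markers of the gene set, Acta2, Myh11, Rgs5, Pdgfrb and Cspg4 were measurable, Acta2 on 3 LPS and 4 saline arrays. Both probes of Tagln stayed below the limit on every array. That a probe was measurable does not show which cells its signal came from.

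After LPS, 6 of the 9 tested members fell and 0 rose, with 3 not passing the test. Smtn, Pdgfb, Rgs5, Abcc9, Kcnj8 and Cspg4 were called lower. Among all 8874 genes tested, 9.78% were called lower and 9.74% higher, and 19.5% were called in either direction. Of these calls 49.9% were higher, a share that was 23.6% with scaling to the median of all gene probes, under which 5 members were called lower. The LPS minus saline differences of the 9 tested members ran from -1.24 to -0.22 on the log2 scale with a median of -0.61, beside a median of -0.05 over all tested genes. All 9 were below 0, as were those of 56.4% of all tested genes. The members were chosen with earlier results of these data known. Their counts beside the shares over all genes are therefore a description, not a test. No member rose at an unadjusted p under 0.05 either, and 8 were lower at that level. In an exact two-sided permutation test over the 70 arrangements of the arrays, no member was higher and 5 were lower at p = 0.0286, the smallest p this design allows, before any adjustment. These 5, Smtn, Rgs5, Abcc9, Kcnj8 and Cspg4, were also those in which every LPS array lay below every saline array, as in 12.3% of all tested genes. The filter on dim probes let Kcnj8 in through its saline arrays, so its count among the members is no support for a fall.

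How many members passed depended on single mice and on the subset of arrays. Leaving out LPS 2, LPS 4, saline 2 or saline 4 left Smtn as the 1 member called, and between 1 and 6 were called over the 8 omissions. The omissions that left Smtn alone called 5.45%, 5.62%, 5.86% and 7.20% of all tested genes lower, against 9.78% with all arrays. With no filter on dim probes 3 were called, namely Smtn, Cspg4 and Kcnj8, beside 4.96% of all genes called lower. Of the first scan day, with LPS 2 to 4 and saline 3 and 4, limma called 0 members, although 8 were lower at an unadjusted p under 0.05 and all 9 differences were negative, from -1.06 to -0.11. Limma called 1.71% of all tested genes lower on that day. Among the 4 arrays without a redip mark, a mark in the scan labels whose meaning is not given, limma also called 0, with 1 lower at an unadjusted p under 0.05 and 8 of 9 differences negative. Of all tested genes, 3 were called lower in those arrays (0.0338%), so a count of 0 cannot tell the members from other genes. In the arrays with the mark, LPS 2, LPS 4, saline 2 and saline 4, limma called 6 members lower. Acta2 was among these 6 and Cspg4 was not, beside 6.70% of all tested genes called lower. The second scan day held LPS 1 and saline 2, whose differences were negative in 8 of 9 members, from -1.80 to 0.42, with Myh11 the exception. The first slide series held LPS 2 to 4 alone and the second held LPS 1 with all 4 saline arrays. A block for slide series therefore sets 1 LPS mouse, LPS 1, against the saline mice, as the second series alone does, and neither is a comparison between groups of mice. In that single mouse the differences of Smtn, Pdgfb and Kcnj8 were -1.15, -1.73 and -0.98. Those of Rgs5, Abcc9 and Cspg4 were smaller there, at -0.38, -0.43 and -0.16, against -0.69, -0.68 and -0.44 with all arrays. Acta2, Pdgfrb and Myh11 differed by -0.08, -0.57 and 0.06 in it. Slide series and treatment cannot be told apart for LPS 2 to 4.

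**Figure D1:**
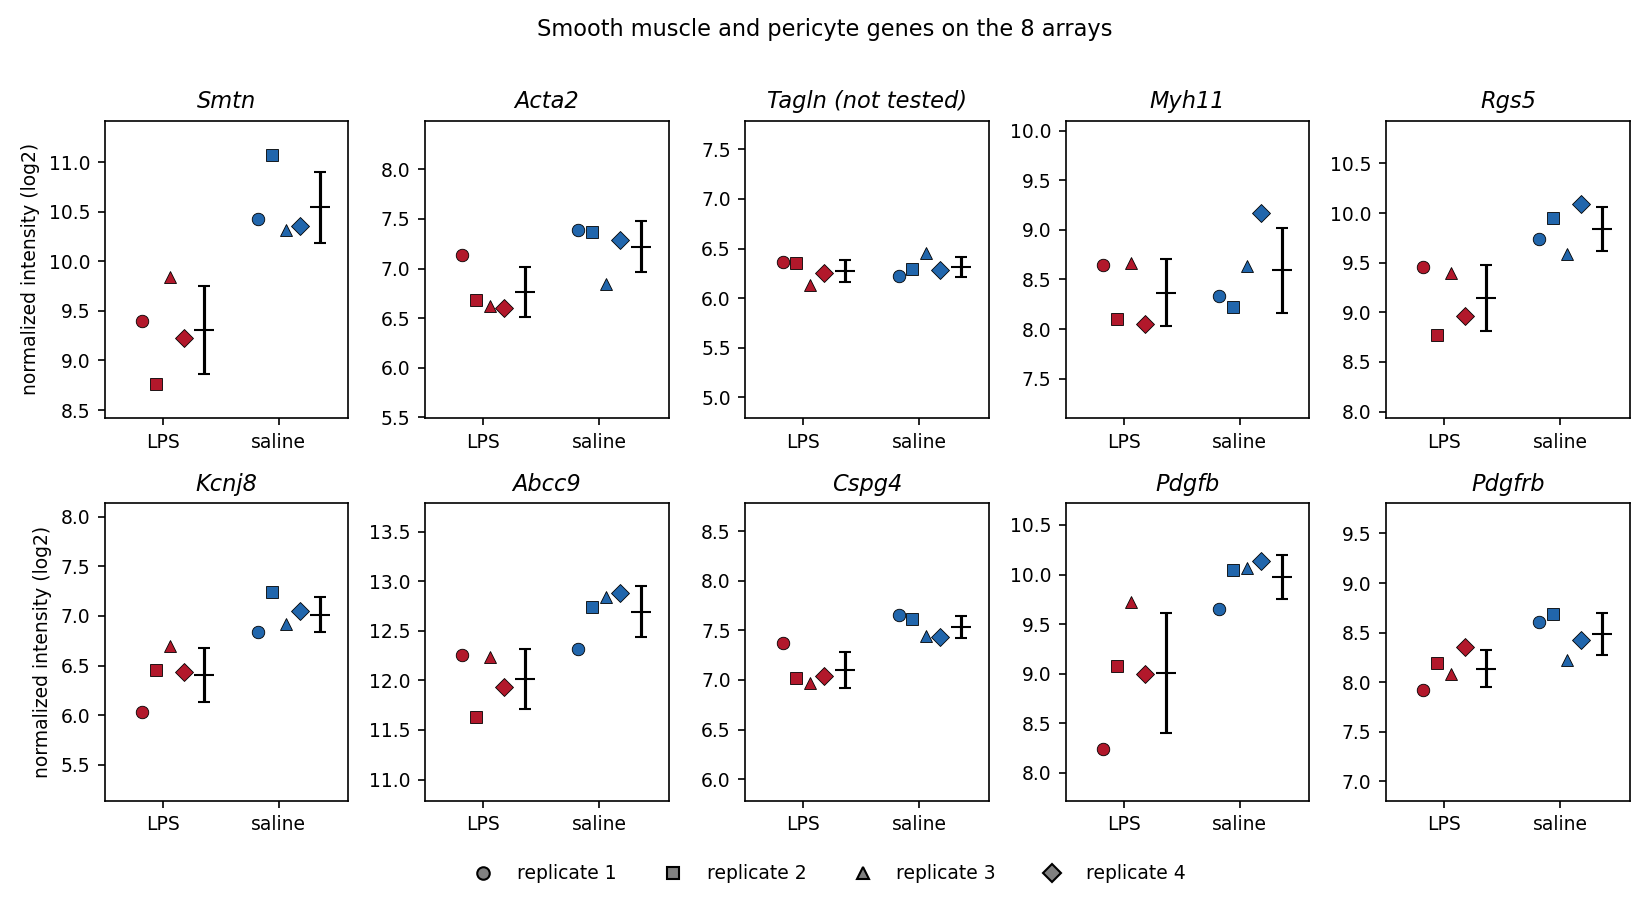
Normalized log2 intensity of the probe that stood for each tested gene on every array, LPS left and saline right, with the mean and SD of 4 mice in black. Each panel spans 3 log2 units at its own level. All LPS points lie below all saline points for Smtn, Rgs5, Abcc9, Kcnj8 and Cspg4, and the groups overlap for Pdgfb, Acta2, Pdgfrb and Myh11.

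Among the 3 tested contractile members Smtn alone fell, and it was the 1 member whose call outlasted every omission of a single array. Smtn encodes smoothelin, a cytoskeletal protein of contractile smooth muscle that is also found in striated muscle in related forms. Its brighter probe read 9.40, 8.76, 9.84 and 9.22 on LPS arrays 1 to 4, against 10.42, 11.08, 10.31 and 10.36 on saline arrays 1 to 4. Every LPS mouse was below every saline mouse, with LPS 2 the lowest and saline 2 the highest. The mean was 9.31 ± 0.45 after LPS and 10.54 ± 0.36 after saline (SD, n = 4 each), a difference of -1.24 (SE 0.24, limma adjusted p = 0.00661), that is 0.424 of the saline level. It ranked number 97 of 8874 tested genes from the lowest difference upward. The call ended on the first scan day, with a difference of -1.05 in that refit, and in the arrays without a redip mark, with one of -0.75.

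A second, dimmer Smtn probe also read lower after LPS without passing the test. It gave 7.77, 7.71, 7.93 and 7.55 on the LPS arrays, against 8.90, 8.72, 7.67 and 8.16 on the saline arrays. LPS 1, 2 and 3 lay above saline 3, the lowest saline array, so the groups overlapped on this probe. Its difference was -0.63 (SE 0.24, adjusted p = 0.106 in a limma fit over every kept probe).

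Acta2 encodes smooth muscle alpha-actin, the defining actin of contractile smooth muscle, and did not pass the test. The measurable probe read 7.14, 6.68, 6.62 and 6.60 on the LPS arrays, against 7.39, 7.36, 6.84 and 7.29 on the saline arrays. LPS 1 stood above saline 3, while the other LPS arrays were below all saline arrays. The mean was 6.76 ± 0.25 after LPS and 7.22 ± 0.25 after saline (SD, n = 4 each), a difference of -0.46 with a 95% interval of -0.84 to -0.08 (limma adjusted p = 0.0863). Without LPS 1, and likewise without saline 3, the Acta2 difference was called. It was also called in the arrays with a redip mark alone (limma adjusted p = 0.0455). This probe was above background on 3 LPS and 4 saline arrays, and the second Acta2 probe on none, so the actin was read close to the detection limit. With the local background subtracted its difference was -0.90 and also not called.

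Tagln encodes transgelin, an actin-binding protein of early and mature smooth muscle, and could not be tested. One probe read 6.36, 6.35, 6.13 and 6.26 on the LPS arrays, against 6.23, 6.29, 6.45 and 6.28 on the saline arrays, all not well above background. No fold is given, since both groups lay below the limit. All 5 member probes left out of the test, including both of Tagln, had levels between 5.86 and 6.45.

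Myh11 encodes the smooth muscle myosin heavy chain, the most restricted marker of the mature contractile cell, and did not pass the test. Its probe read 8.65, 8.11, 8.67 and 8.05 on the LPS arrays, against 8.33, 8.23, 8.64 and 9.17 on the saline arrays. The groups were interleaved, and saline 4 alone stood above all LPS arrays. The mean was 8.37 ± 0.34 after LPS and 8.59 ± 0.43 after saline (SD, n = 4 each). The difference was -0.22 with a 95% interval of -0.74 to 0.29 (limma adjusted p = 0.534), an interval that covers differences as large as that of Rgs5.

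Rgs5, a regulator that shortens G protein signals and a widely used pericyte marker, fell. Its probe read 9.46, 8.77, 9.40 and 8.97 on the LPS arrays, against 9.74, 9.95, 9.59 and 10.10 on the saline arrays. All LPS mice were below all saline mice, with a narrow gap between LPS 1 and saline 3. The mean was 9.15 ± 0.33 after LPS and 9.84 ± 0.22 after saline (SD, n = 4 each), a difference of -0.69 (SE 0.18, limma adjusted p = 0.0257), or 0.618 of the saline level. Omitting any of LPS 2, LPS 4, saline 2 and saline 4 ended the call, as did analysis with no filter on dim probes.

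Of the 2 subunits of the vascular ATP-sensitive potassium channel, Abcc9 fell, and Kcnj8 was called lower from a probe at background on 3 of 4 LPS arrays. Kcnj8 encodes Kir6.1, the pore, and Abcc9 encodes SUR2, the sulfonylurea receptor that surrounds it and that cardiac muscle also uses with another pore. The brightest Abcc9 probe read 12.26, 11.63, 12.24 and 11.93 on the LPS arrays, against 12.32, 12.73, 12.84 and 12.88 on the saline arrays. LPS 1 and LPS 3 came close to saline 1 without crossing it. The mean was 12.01 ± 0.30 after LPS and 12.69 ± 0.26 after saline (SD, n = 4 each), a difference of -0.68 (SE 0.18, limma adjusted p = 0.0265), or 0.625 of the saline level. Omission of LPS 2, of LPS 4 or of any saline array but saline 1 ended the call, as did no filter on dim probes.

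A second Abcc9 probe moved the same way by more but with more spread. It read 8.43, 8.94, 9.08 and 9.90 on the LPS arrays, against 10.65, 10.58, 9.72 and 9.67 on the saline arrays. LPS 4 stood above saline 3 and saline 4, so the groups overlapped. Its difference was -1.07 (SE 0.33, adjusted p = 0.0478 in the limma fit over every kept probe). The third Abcc9 probe was above background on no array.

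Kcnj8 was the dimmest member called, and its size depended on the handling of background. Its signal over background was 7, 24, 39 and 18 units on the LPS arrays, against 110, 102, 52 and 73 on the saline arrays. LPS 3 alone among the LPS arrays passed its array's negative-control limit, while all 4 saline arrays did. Normalized levels were 6.04, 6.46, 6.70 and 6.43 on the LPS arrays, against 6.84, 7.24, 6.92 and 7.05 on the saline arrays, with no overlap. The mean was 6.41 ± 0.27 after LPS and 7.01 ± 0.18 after saline (SD, n = 4 each), a difference of -0.61 (SE 0.16, limma adjusted p = 0.0252). It was -1.69 with the local background subtracted, -0.92 with a normexp offset of 16, and -0.36 and not called with scaling to the median of the tested probes. Leaving out LPS 1, LPS 2, LPS 4, saline 2 or saline 4 also ended the call.

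Related channel genes moved less clearly. Kcnj11 encodes Kir6.2, the pore that pairs with SUR2 in cardiac muscle, and averaged 7.70 ± 0.36 after LPS and 8.27 ± 0.44 after saline (SD, n = 4 each), a difference of -0.56 (SE 0.24, limma adjusted p = 0.135). Kcnj12, an inward rectifier outside this channel, had a difference of -0.44 (SE 0.18, adjusted p = 0.128). Limma called 0 of the 3 tested genes of the list of related potassium channel genes, 2 of them being lower at an unadjusted p under 0.05, and their median was -0.56. No gene probe was matched to Abcc8, so it could not be measured.

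Cspg4, which encodes the NG2 proteoglycan on the surface of pericytes, fell. Its probe read 7.37, 7.02, 6.97 and 7.04 on the LPS arrays, against 7.65, 7.61, 7.45 and 7.43 on the saline arrays. The groups did not overlap, although LPS 1 came within a short distance of saline 4. The mean was 7.10 ± 0.18 after LPS and 7.54 ± 0.11 after saline (SD, n = 4 each), a difference of -0.44 (SE 0.13, limma adjusted p = 0.0394), or 0.739 of the saline level. With the local background subtracted in place of normexp it was -0.71. This was the least stable call, kept without LPS 1 and lost in each of the other 7 omissions of 1 array. It was also lost under cyclic loess, median scaling, mean spot intensity and the blocks for scan day and redip mark.

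The endothelial ligand of the PDGF pair fell, and its mural receptor did not pass the test. Pdgfb encodes the PDGF-B chain and is made by endothelium rather than by mural cells. Its probe read 8.25, 9.08, 9.72 and 8.99 on the LPS arrays, against 9.65, 10.05, 10.07 and 10.14 on the saline arrays. LPS 3 stood above saline 1, and the other LPS arrays were below all saline arrays. The mean was 9.01 ± 0.60 after LPS and 9.98 ± 0.22 after saline (SD, n = 4 each), a difference of -0.97 (SE 0.27, limma adjusted p = 0.0308), or 0.512 of the saline level. The exact permutation p was 0.0571. The call needed LPS 2, LPS 4 and each of saline 2, 3 and 4, and ended with no filter on dim probes. A second Pdgfb probe was above background on no array.

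Pdgfrb, the receptor on mural cells and fibroblasts, read 7.92, 8.19, 8.08 and 8.36 on the LPS arrays, against 8.61, 8.69, 8.22 and 8.42 on the saline arrays. LPS 4 stood above saline 3, and the other LPS arrays lay below all saline arrays. The mean was 8.14 ± 0.18 after LPS and 8.49 ± 0.21 after saline (SD, n = 4 each), a difference of -0.35 with a 95% interval of -0.67 to -0.03 (limma adjusted p = 0.126). It was called with mean in place of median spot intensity. The alpha chain and alpha receptor of the family did not pass either, with differences of 0.51 for Pdgfa (SE 0.21, adjusted p = 0.118) and -0.45 for Pdgfra (SE 0.23, adjusted p = 0.211).

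**Figure D2:**
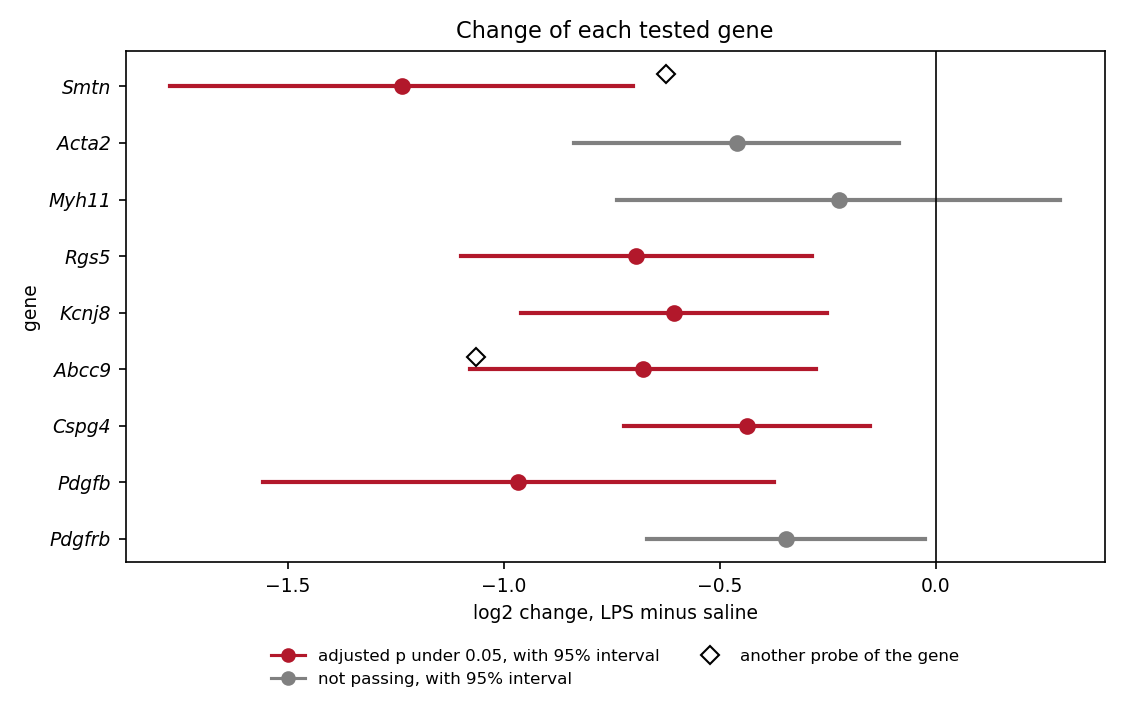
LPS minus saline difference of each tested gene on the log2 axis with its 95% interval from the limma model, n = 4 mice per group. All 9 estimates are negative, from -1.24 for Smtn to -0.22 for Myh11, and the interval of Myh11 alone crosses 0.

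The mean level of the tested members was lower on every LPS array than on every saline array. Averaged over the 9 tested members, the level relative to the saline mean was -0.60, -0.80, -0.41 and -0.70 on LPS arrays 1 to 4. On the saline arrays it was -0.11, 0.12, -0.11 and 0.10. LPS 2 had all 9 members below the lowest saline value, LPS 4 had 8, and LPS 1 and LPS 3 had 7 each. LPS 3 was the nearest to saline and LPS 2 the farthest by this measure. Over all tested genes and unnamed probes LPS 3 was also the nearest to saline. Its correlations with the saline arrays were 0.938 to 0.960, against 0.895 to 0.920 for the other LPS arrays. The place of LPS 3 was thus not particular to the members. Counts below the lowest saline value over all genes are not given here.

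**Figure D3:**
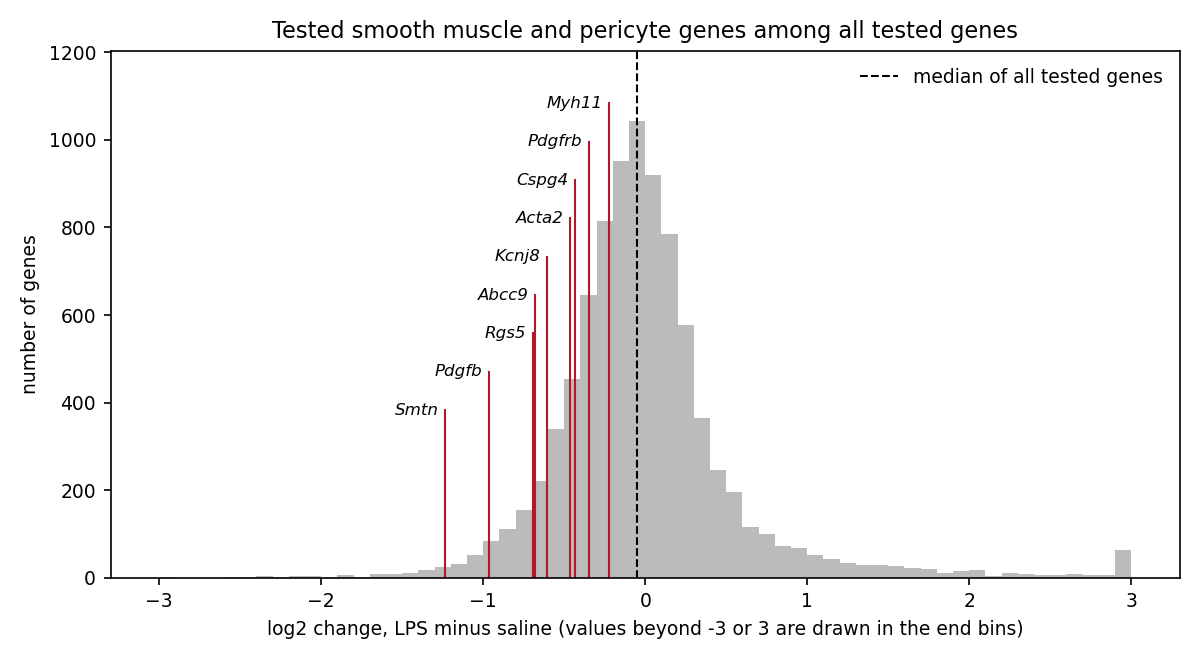
Distribution of LPS minus saline log2 differences over the 8874 tested genes, with the 9 tested members marked. Members lie left of the median over all genes of -0.05, and the lowest, Smtn, ranks as number 97 from the lowest.

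Other genes of contraction split in both directions. Of 17 tested genes of the smooth muscle contractile and cytoskeletal list, 3 rose, 3 fell and 11 did not pass, with a median difference of -0.21. The shares over all tested genes were 9.74% called higher and 9.78% called lower. Csrp1, a LIM protein of smooth muscle, averaged 11.56 ± 0.54 after LPS and 10.16 ± 0.38 after saline (SD, n = 4 each), and was called higher (limma adjusted p = 0.00669). Pdlim7, another LIM protein that binds the cytoskeleton, rose by 1.19 (SE 0.19, adjusted p = 0.00237), but a second probe of it differed by -0.78. Fhl2, a LIM protein abundant in heart muscle, had a difference of -1.65 (SE 0.40, adjusted p = 0.0180) and Synpo2, an actin-bundling protein, one of -0.86 (SE 0.26, adjusted p = 0.0473). The call of Fhl2 ended without LPS 2, saline 1 or saline 2, and that of Synpo2 with any omission but LPS 3 or saline 2. Tpm4 also rose and Aoc3 fell. With scaling to the median of all gene probes, which moves the median over all genes to -0.35, the list held 4 falls, and the rises of Csrp1 and Pdlim7 were not called.

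Of 21 tested genes that set vascular tone, 2 rose, 3 fell and 16 did not pass, with a median of -0.18, shares near the 9.74% and 9.78% over all genes. Gucy1b1, a subunit of the guanylate cyclase that senses nitric oxide, averaged 6.71 ± 0.13 after LPS and 7.83 ± 0.10 after saline, a difference of -1.11 (SE 0.12, limma adjusted p = 0.000206). Agtr1a, the angiotensin II receptor, differed by -1.01 (SE 0.16, adjusted p = 0.00265). Ptgs2, the inducible cyclooxygenase, was above background on 4 LPS and no saline arrays and was at least 1.93-fold higher after LPS (adjusted p = 0.00215), with measured means of 7.43 after LPS and 6.07 after saline. It passed the filter through its LPS arrays, so its count is no support for a rise. Ednrb, an endothelin receptor of endothelium and other cells, rose by 0.83 (SE 0.23, adjusted p = 0.0315), a call lost under any omission but LPS 3 or saline 1. Rock1, a kinase that sustains contraction, fell.

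Of 19 tested genes of the list of SRF, myocardin and Notch regulators, 1 rose, 6 fell and 12 did not pass, with a median of -0.42. Over all tested genes 9.74% were called higher and 9.78% lower. At an unadjusted p under 0.05, 11 were lower and 1 was higher. The 6 called lower were Hey1, Hey2, Heyl, Jag1, Notch1 and Notch3. Hey1, Hey2 and Heyl passed the filter through their saline arrays, so their count is no support for a fall. With only probes above background on all 8 arrays, 16 genes of the list were tested, of which 1 rose and 3 fell. Hey1, a target of Notch in vessels, averaged 6.23 ± 0.24 after LPS and 7.43 ± 0.12 after saline, a difference of -1.20 (SE 0.14, limma adjusted p = 0.000434). Its probe was above background on 1 LPS and 4 saline arrays and passed the filter through saline, as did that of Hey2, so the LPS levels of both are close to a floor. Notch3, the Notch receptor typical of mural cells, averaged 10.02 ± 0.14 after LPS and 10.83 ± 0.29 after saline, a difference of -0.80 (SE 0.16, adjusted p = 0.00696). Heyl, above background on no LPS array, was at least 1.16-fold lower after LPS (adjusted p = 0.00578). Srf itself had a difference of -0.71 (SE 0.25, adjusted p = 0.0716), and its partner Myocd one of -0.24 (SE 0.19, adjusted p = 0.408). Other probes differed by -0.61 for Srf and by -0.28 and 0.23 for Myocd, so the Myocd probes disagreed in sign. Tgfbr2, a TGF-beta receptor, rose by 0.50 (SE 0.14, adjusted p = 0.0355), a call lost under any omission but LPS 1 or saline 4.

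Among other pericyte and mural markers, 3 of 17 tested genes rose, 5 fell and 9 did not pass, with a median of -0.31. Beside these counts, 9.74% of all tested genes were called higher and 9.78% lower. Higd1b, a pericyte marker of the mitochondrial inner membrane, averaged 7.27 ± 0.57 after LPS and 8.74 ± 0.41 after saline, a difference of -1.47 (SE 0.29, limma adjusted p = 0.00677). Vtn, which encodes the matrix protein vitronectin, differed by -1.14 (SE 0.27, adjusted p = 0.0165). Anpep, above background on no LPS array, was at least 1.08-fold lower (adjusted p = 0.00840). It passed the filter through its saline arrays, so its count is no support for a fall. Cd248 and Notch3 fell as well. Steap4, a metalloreductase known to be induced by inflammatory cytokines, went against them with 11.74 ± 0.73 after LPS and 8.78 ± 0.10 after saline, a difference of 2.96 (SE 0.30, adjusted p = 0.000185), and its second probe differed by 2.05. Gja4, a gap junction protein of arterial endothelium and some mural cells, rose by 1.16 (SE 0.31, adjusted p = 0.0260), a call lost under any omission but LPS 3 or saline 3. Nt5e rose too.

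Signals between endothelium and mural cells included the angiopoietin pathway, in which Tie2, encoded by Tek, keeps vessels quiescent and angiopoietin-2 opposes it. Of 18 tested genes, 3 rose, 4 fell and 11 did not pass, with a median of -0.13. All tested genes had 9.74% called higher and 9.78% called lower. Tek averaged 7.75 ± 0.61 after LPS and 9.57 ± 0.26 after saline, a difference of -1.82 (SE 0.27, limma adjusted p = 0.00168). Nrp1, a co-receptor of VEGF, differed by -1.14 (SE 0.15, adjusted p = 0.000849), with -0.68 on a second probe. Angpt2 averaged 8.32 ± 0.75 after LPS and 7.21 ± 0.09 after saline, a rise of 1.11 (SE 0.30, adjusted p = 0.0305) that was not called without LPS 2, LPS 4 or any 1 of the 4 saline arrays. Hbegf, an EGF-family ligand, rose by 1.11 (SE 0.34, adjusted p = 0.0462), a call lost in 7 of 8 omissions, LPS 3 being the exception. Acvrl1 and Eng fell. Under scaling to the median of all gene probes neither Angpt2 nor Hbegf was called.

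Of 7 other RGS genes tested, 1 rose and 1 fell, beside 9.74% of all tested genes called higher and 9.78% called lower. Rgs16, which is induced in many cell types by inflammatory stimuli, averaged 9.81 ± 0.25 after LPS and 8.12 ± 0.39 after saline, a rise of 1.69 (SE 0.20, limma adjusted p = 0.000476). Rgs10 averaged 7.08 ± 0.26 after LPS and 8.60 ± 0.14 after saline, a difference of -1.52 (SE 0.15, adjusted p = 0.000152). The remaining 5 did not pass, the median was 0.06, and 6 further RGS genes of the list were not tested.

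**Figure D4:**
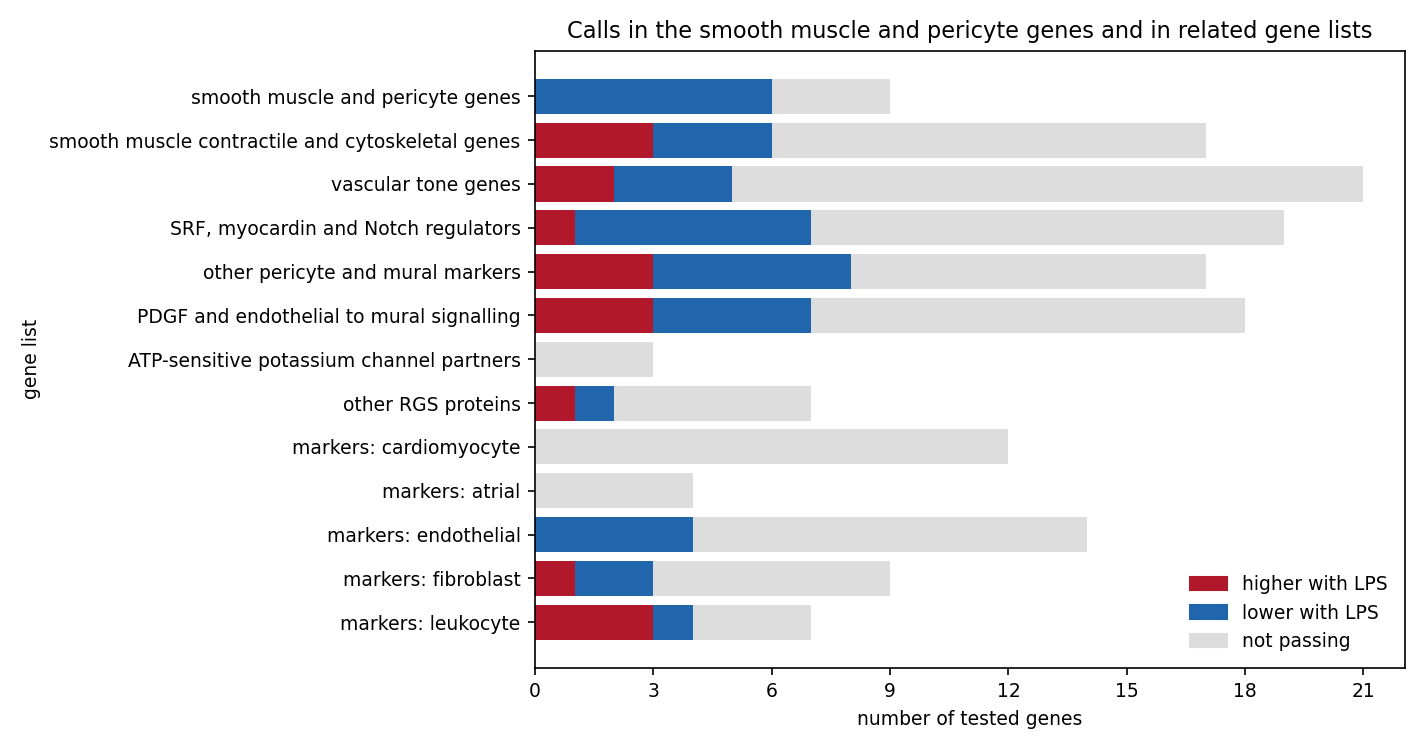
Number of tested genes called higher, called lower and not passing in each gene list, after LPS against saline. The smooth muscle and pericyte genes had 6 of 9 lower and 0 higher, while the contractile list had 3 in each direction. Shares over all tested genes were 9.78% lower and 9.74% higher.

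Markers of other cells of the heart differed in how many were called, and cardiomyocyte and atrial markers held no call. Over all tested genes 9.78% were called lower and 9.74% higher. Endothelial markers, to which Pdgfb is closest by source, fell in 4 of 14, with a median of -0.60. Limma called 0 of them higher, and at an unadjusted p under 0.05 none was higher and 9 were lower. Their summed normalized intensity was 13515 to 25072 after LPS and 23187 to 32794 after saline. Egfl7 averaged 9.10 ± 0.78 after LPS and 11.23 ± 0.07 after saline, a difference of -2.13 (SE 0.31, limma adjusted p = 0.00156), and Ptprb differed by -2.11 (SE 0.27, adjusted p = 0.000705), with -0.87 on a second probe. All 14 endothelial markers were measurable, and their part in the falls of the members was not tested.

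Leukocyte markers rose in 3 of 7 tested genes and fell in 1, with a median of 0.80. S100a8 differed by 3.12 (SE 0.36, limma adjusted p = 0.000391), S100a9 by 1.85 (SE 0.28, adjusted p = 0.00190) and Lyz2 by -1.18 (SE 0.25, adjusted p = 0.00938). Their summed intensity was 2581 to 3747 after LPS and 1584 to 2787 after saline, and 6 further markers of the list, Ptprc among them, were not tested. Fibroblast markers, which share Pdgfrb with mural cells, rose in 1 of 9 and fell in 2, with a median of -0.45. Their sums were 22259.5 to 27431 after LPS and 18159 to 23856 after saline, most of each from 1 probe of Dcn at 14.32 after LPS and 13.84 after saline. Lum averaged 8.61 ± 0.34 after LPS and 9.61 ± 0.51 after saline (limma adjusted p = 0.0220), a call lost under omission of LPS 2, LPS 4, saline 1 or saline 4. Col1a1 differed by -0.92 (SE 0.25, adjusted p = 0.0306), a call lost under any omission but LPS 2, LPS 3 or saline 3. Dcn rose by 0.48 (SE 0.13, adjusted p = 0.0281), but its 3 other probes differed by -0.53, -0.42 and -0.14, and omission of LPS 2, LPS 4, saline 1 or saline 2 ended its call.

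Limma called 0 of 12 cardiomyocyte markers, 4 being lower at an unadjusted p under 0.05, with sums of 265397 to 336024 after LPS and 330438 to 411483 after saline and a median of -0.33. Myh6, the main heavy chain of mouse cardiac myosin, had the smallest p, with a difference of -0.85 (SE 0.30, limma adjusted p = 0.0733). Of 4 tested atrial markers 0 were called by limma and 0 were past an unadjusted p of 0.05, with a median of 0.91. Their sums spread from 511 to 61357 after LPS and from 659 to 77809 after saline, a wide spread within both groups. Pam, the atrial marker with the smallest p, differed by -0.17 (SE 0.16, adjusted p = 0.495), and by 0.12 on a second probe. The part of these cells in the members' values was not tested.

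The profiles most like those of 3 members were sought among all tested genes by the root mean square difference of centred log2 levels over the 8 arrays. For Smtn the nearest were Sspn, Perm1 and Nhlrc1, at 0.212, 0.217 and 0.222, against a median over all genes of 0.719. For Kcnj8 they were Elovl5, Sipa1 and Zfp219, at 0.0705, 0.0823 and 0.0995, against a median of 0.410. For Rgs5 they were Rab11fip5, Tubg1 and Nfia, at 0.0779, 0.122 and 0.138, against a median of 0.463. All 9 lay lower after LPS, by differences of -1.44 to -0.43, and Zfp219 and Nfia did not pass the test. A likeness over 8 arrays that share a treatment contrast is given as a description.

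**Figure D5:**
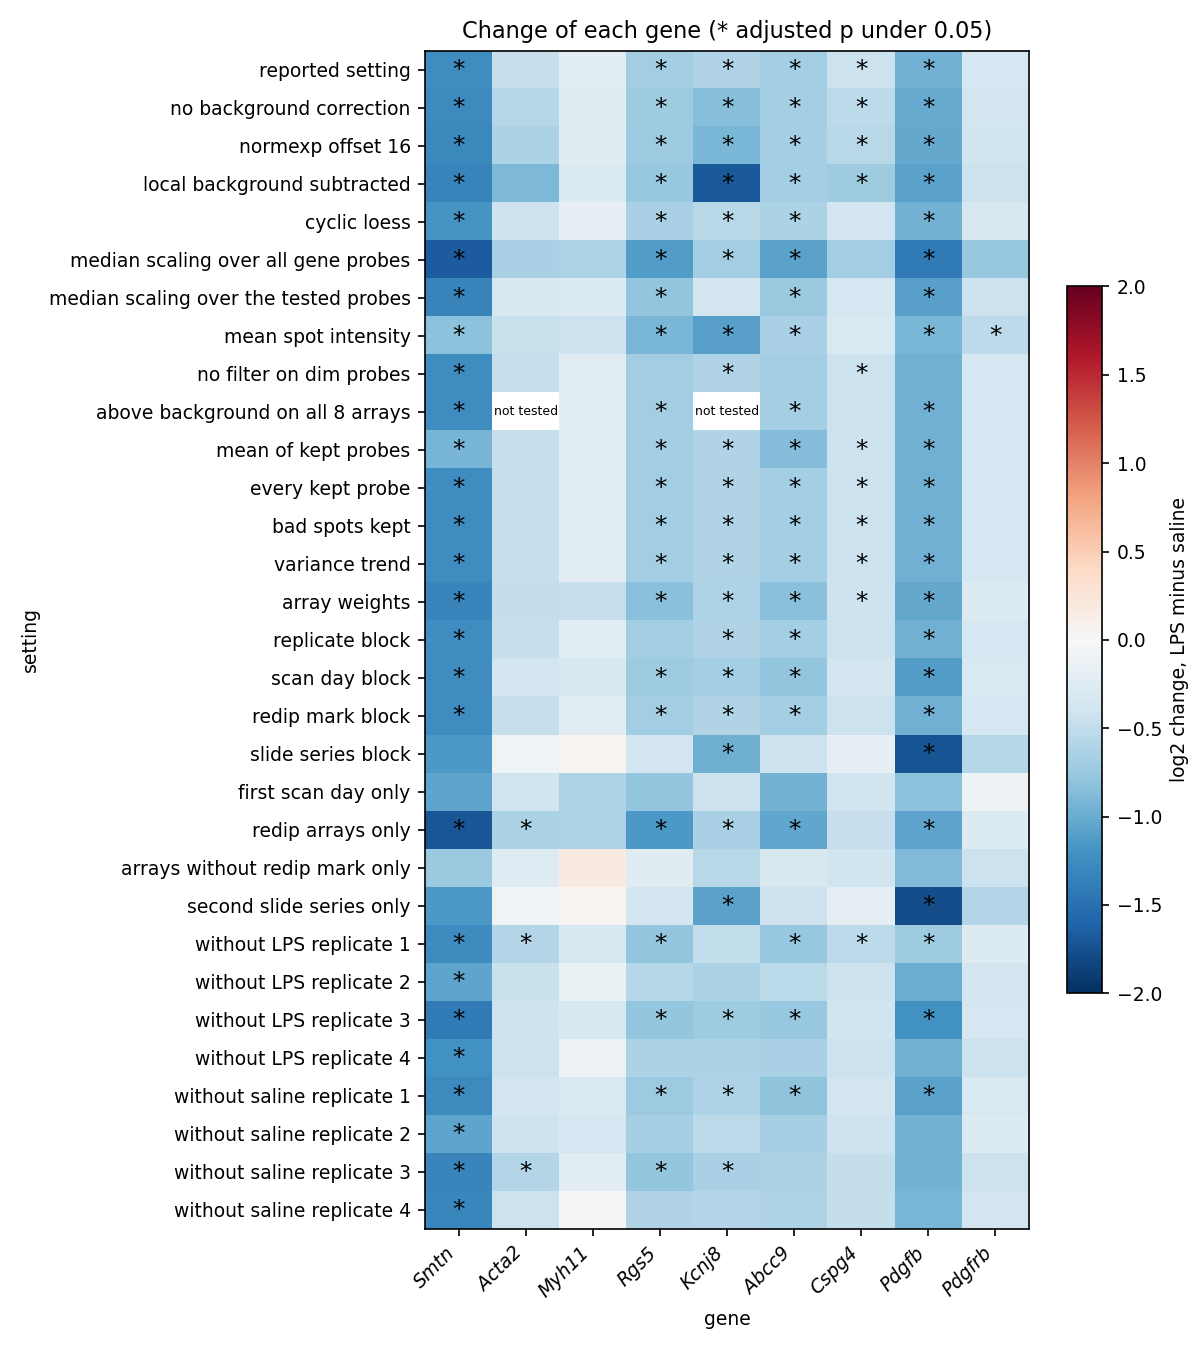
LPS minus saline log2 difference of each tested gene (columns) under each way of processing and each subset of arrays (rows), with stars where the limma adjusted p was under 0.05. White cells were not tested. Differences are negative in nearly all others, Myh11 being the gene whose sign turned, while the stars thin out in most rows where arrays are left out. The rows for slide series rest on 1 LPS array, LPS 1.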

How the data were processed

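Per the labels' protocols, hearts were perfused, RNA was extracted, reverse transcribed from an oligo-dT primer and transcribed into biotin-labelled cRNA, and each sample was hybridised to 1 array. Per the file headers, the deposited scanner files hold spot intensity and local background intensity at 635 nm, not normalized, as read by a GenePix 4000B scanner at gain 650 and 5 µm resolution with GenePix Pro version 4.1.1.4. A further deposited table of processed values was not used here.

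Median spot intensities were background-corrected by normexp with an offset of 50 in limma 3.58.1 (R 4.3.3), taken to log2 and quantile normalized. Spots marked bad were treated as missing. Accessions of 23017 of 35078 gene probes matched 1 gene symbol in RefSeq tables, and 12061 stayed unnamed. Probes above the 95th percentile of 94 negative controls on at least 4 of 8 arrays were kept (14914), and the brightest stood for its gene. LPS was compared with saline by lmFit and eBayes, without covariates, and p-values were adjusted over 8874 genes and 3249 unnamed probes (Benjamini-Hochberg, threshold 0.05, two-sided). The offset shrinks the differences of dim genes such as Kcnj8, Acta2 and Cspg4. Where a gene was dim on all arrays of a group, the bound raises each dim array to the lowest value of any probe above background on it.

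The members and gene lists were chosen with earlier results of these data known. Named are all members, for each list the 2 called genes that rose most and the 2 that fell most (the smallest p where none passed), Kcnj11, Abcc8, Pdgfa, Pdgfra, Srf and Myocd, and the 3 nearest profiles of the 3 members with the smallest p. Called list genes given by symbol alone, and Heyl and Anpep, were chosen after their values were seen. Replicate numbers did not pair the mice. Alternatives covered background, scaling, filter, probe choice, variance, blocks, subsets and omission of each array. The number of arrays limits the precision.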

Additional observations from a re-analysis of the deposited data

Results flagged for a closer look

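In 22 groups of 4 arrays examined, covering the 11 kept probes in both treatments, 2 held an array far from the other 3, and chance alone flags about 1 in 20 groups. The level of LPS 1 on the measurable Acta2 probe was 7.14, above the other LPS arrays, and its gap to the next value was 0.852 of the range of the group. The saline 2 level of the brighter Smtn probe was 11.08, above the other saline arrays, with a gap of 0.857 of the range. Without saline 2 Smtn was still called lower, and without LPS 1 the difference of Acta2 was called.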

How the results depend on the processing

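No member was called higher under any alternative, nor higher at an unadjusted p under 0.05. The count of members called lower, 6 as reported, was 3 with no filter on dim probes, 0 in the first scan day only and 0 in the arrays without a redip mark, and 1 to 6 with single arrays left out. It was 2 with slide series as a block and 2 in the second slide series, both of which rest on 1 LPS mouse, LPS 1, against the 4 saline mice. The share of all tested genes called lower was 9.78% as reported and 4.96% with no filter on dim probes. It was 1.71% on the first scan day and 0.0338% in the arrays without the mark. In the arrays with the mark 6 members were called lower, beside 6.70% of all tested genes, and 1247 genes were called in all. The subsets hold fewer arrays than the full comparison, and why their counts differ was not tested. All genes called numbered 1732 as reported, 758 with slide series as a block, 843 in the second slide series, 427 on the first scan day, 81 in arrays without the mark, and 1109 to 2007 with single arrays left out, lowest without LPS 2. With the replicate number as a block 4 members were called lower, Rgs5 (adjusted p = 0.0576) and Cspg4 (adjusted p = 0.0578) being lost, and 1528 genes in all. Same-numbered mice deviated together with correlations of -0.14 to 0.09, so the numbers do not pair them. The difference of Myh11 was 0.18 in arrays without the mark, and in LPS 1 alone against saline 0.0564 by the slide series block and 0.0593 in the second series, in each case not passing the test. Scaling to the median of all gene probes moved the median over all genes to -0.35 and the share of calls that were higher to 23.6%, against 49.9% as reported, with 5 members called lower. Of the results for single members under an alternative, 209 kept direction and side of the threshold, 61 lost the call, 4 gained it and 3 reversed. Signal near background limits Kcnj8 and Acta2 and left Tagln untested.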
